A study of Mus musculus with 2 samples.

Results

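The 8 receptors described here carry signals for contraction and relaxation of airways and vessels. They are the muscarinic acetylcholine receptors Chrm2 and Chrm3, the alpha-1 adrenergic receptor Adra1a, the endothelin receptors Ednra and Ednrb, the bradykinin receptor Bdkrb2, the histamine receptor Hrh1 and the angiotensin receptor Agtr1a. They were taken by gene symbol and are 8 of the 32285 genes in the files. Their messages were counted in CD45.2-negative lung cells, a sort that removes most blood-derived cells, by droplet 3' single-cell RNA sequencing. WT mice of strain C57B6/J and mice labelled Plaur KO (Plaur-/-, strain also given as C57B6/J), 8 of each, received lipopolysaccharide with ovalbumin on days 0 and 7 as sensitisation and an ovalbumin aerosol on day 14. Plaur encodes uPAR, the urokinase receptor. Each genotype has 1 library, the number of mice in a library is not stated, and all animals had the allergen. The labels name the material total lung cell lysate and give neither the age of the mice nor the part of Plaur that was deleted.

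The WT library held 11776 barcodes and 57028943 unique molecular identifiers (UMIs, counts of single mRNA molecules), the other library 9771 barcodes and 51529241 UMIs. Filtering left 10225 and 8905 cells, with medians of 4837 and 5534 UMIs per cell, and 27 barcodes occurred in both sets of kept cells. Plaur mRNA was counted in both libraries (2374 and 1627 UMIs). The assay reads the 3' end, so a tag outside the deleted part checks nothing, and the second library is called KO-labelled below. Cells were clustered without the 8 receptors and named from marker genes. All 9 smooth muscle markers had UMIs in the smooth muscle-like class of both libraries. No cluster was named pericyte, arterial or alveolar fibroblast. Cluster 6, a fibroblast cluster led by Mgp, Col3a1 and Timp1, is given by its number. Levels are given as CPM, counts scaled to a total of 1000000 UMIs per class and library. In the WT library adventitial fibroblast markers summed to 5182 CPM in cluster 6 and 22023 CPM in the adventitial fibroblast-like class. Alveolar fibroblast markers summed to 5092 and 787 CPM in the same order. The sums cover different genes, so their near equality in cluster 6 does not give the share of each fibroblast type. Neither genotype has a second library, so there are no replicates and no test. Intervals are exact 95% intervals that cover counting error only, and values that belong to the libraries cannot be told apart from values that belong to the genotype.

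All 8 genes encode receptors that signal through G proteins. CHRM3, ADRA1A, EDNRA, HRH1 and AGTR1A couple mainly to Gq, which raises calcium and contracts smooth muscle. CHRM2 couples to Gi, which lowers cyclic AMP. EDNRB and BDKRB2 on endothelium are best known for release of nitric oxide and prostacyclin, which relax the muscle beneath, and EDNRB also clears endothelin from the blood.

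Most of the UMIs were counted outside smooth muscle-like cells, which were only 83 of 10225 and 34 of 8905 kept cells. The receptors differed in the classes that held them, and some shared a class. Ednrb and Bdkrb2 were highest in aerocyte-like cells, the wide capillary cells of gas exchange. Ednra and Adra1a were highest in fibroblasts, Ednra also in smooth muscle-like cells. Chrm2 was found in general capillary-like and mesothelial-like cells, Chrm3 in lymphatic-like, venous-like and several other classes. Hrh1 and Agtr1a had only 50 and 66 UMIs over both libraries, with the largest counts in mesothelial-like cells of the WT library (29 and 24). The plot of receptor mRNA by cell class shows these levels.

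**Figure D1:**
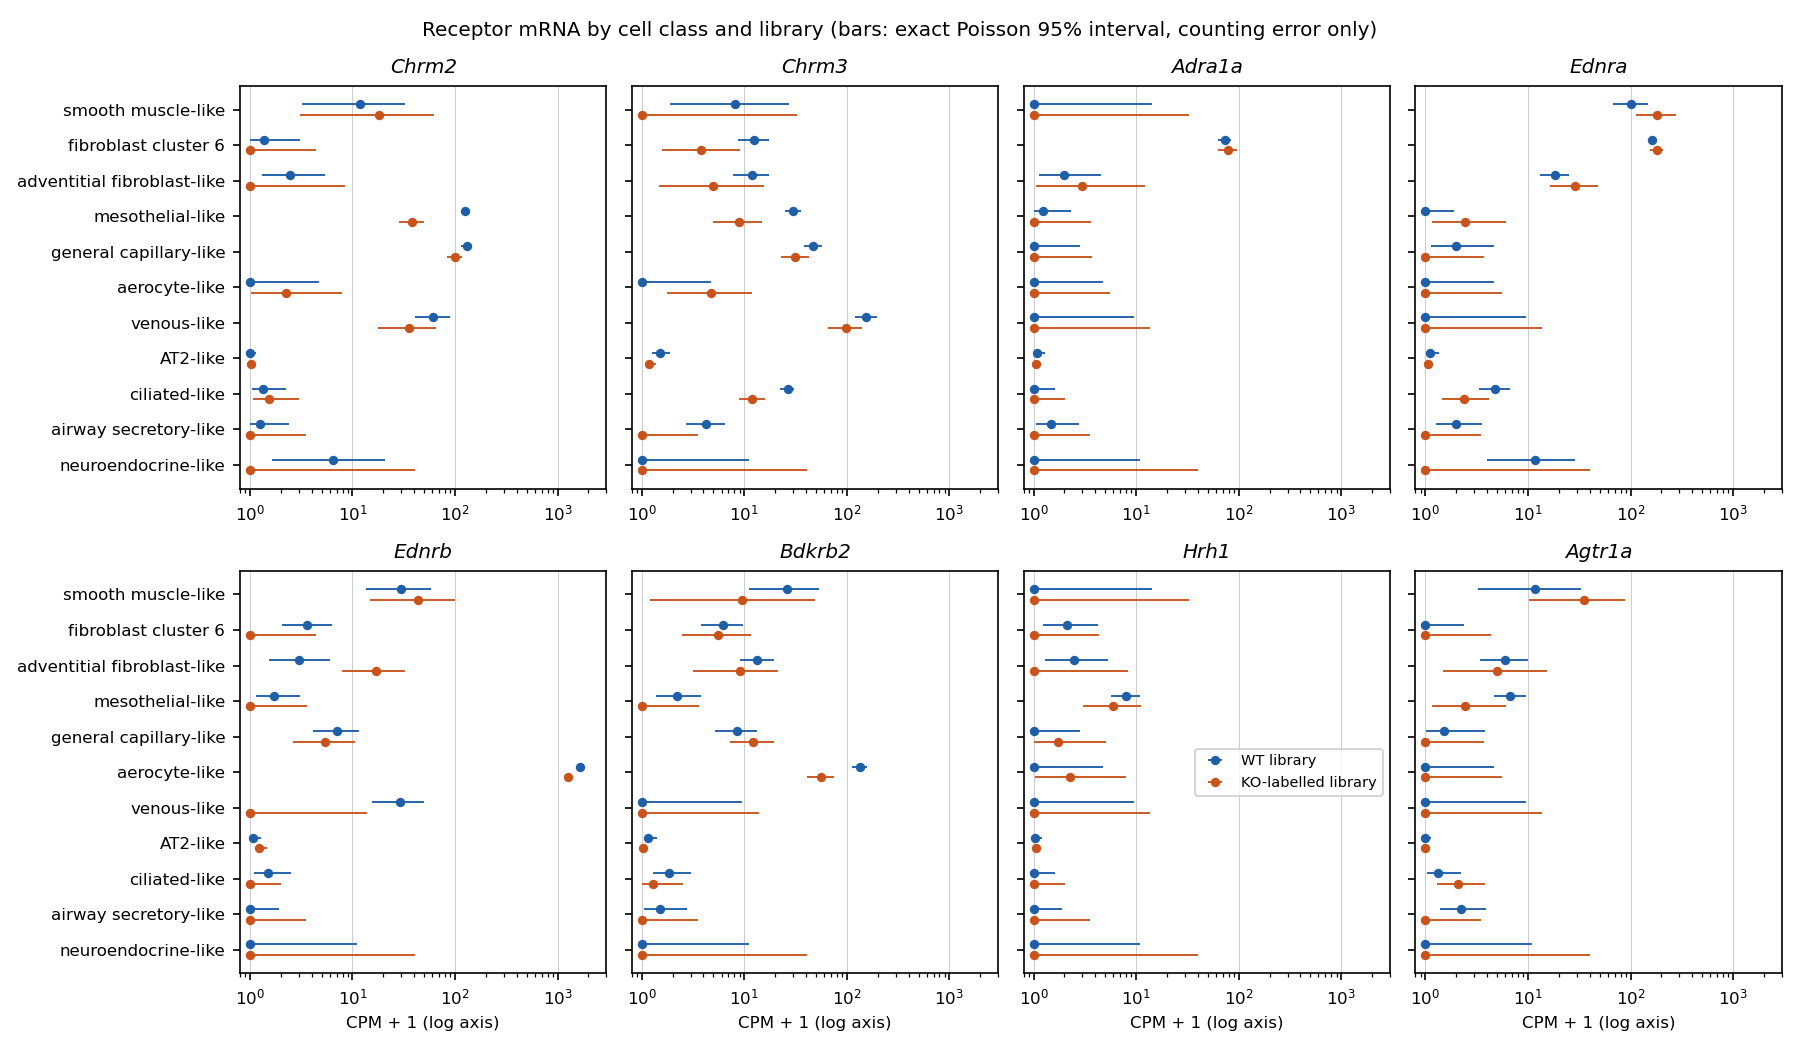
CPM plus 1 on a log axis for the 8 receptors in 11 cell classes, with 1 point per library (blue WT, orange KO-labelled) and bars for the exact Poisson 95% interval. Ednrb in aerocyte-like cells lies highest, at 1647 and 1259 CPM, and Adra1a stands clear of 0 in cluster 6 alone (71.9 and 77.9 CPM).

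Ednrb (chromosome 14, 103814625 to 103844402, minus strand, GENCODE M21 on GRCm38) had 1711 UMIs in the WT and 1051 in the KO-labelled library. Aerocyte-like cells held 95.7% and 96.3% of them. In these cells the level was 1647 CPM (1569 to 1729) in the WT library and 1259 CPM (1183 to 1339) in the KO-labelled library, with an Ednrb UMI in 88.4% and 82.3% of 569 and 419 cells. AT2-like cells, which secrete surfactant, served as background: 0.0522% and 0.154% of them had an Ednrb UMI, at median depths of 6382 and 6162 UMIs against 1534 and 1578 in aerocyte-like cells. The next class, lymphatic-like cells, had 139 CPM (21 UMIs in 39 cells) and 60.1 CPM (4 UMIs in 12 cells), and general capillary-like cells 6.03 and 4.45 CPM. The intervals of aerocyte-like cells and of every other class were apart in both libraries, those of general capillary-like cells included. Smooth muscle-like cells had 28.8 and 42.6 CPM, from 8 and 5 UMIs.

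Bdkrb2 (chromosome 12, 105563226 to 105595237, plus strand) encodes the constitutive receptor for bradykinin. Its level was also highest in aerocyte-like cells, at 133 CPM (111 to 157) in the WT library and 54.7 CPM (39.8 to 73.5) in the KO-labelled library. These cells held 62.3% and 62.0% of its 212 and 71 UMIs. The next class in the WT library, smooth muscle-like cells at 25.2 CPM, rested on 7 UMIs in 2 cells, and had 1 UMI in the KO-labelled library. Fibroblasts of the adventitial-like class, the connective tissue sheath of bronchi and arteries, had 12.4 and 7.99 CPM (25 and 4 UMIs), and general capillary-like cells 7.54 and 11.1 CPM (15 UMIs each). Below the aerocyte-like cells, neighbours in the order of the WT library had overlapping intervals down to cluster 6. A Bdkrb2 UMI was present in 16.5% and 7.88% of aerocyte-like cells, against 0.0261% and 0.0171% of AT2-like cells.

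Ednrb and Bdkrb2 share aerocyte-like cells, so the sequences before their RefSeq starts are shown. Capitals mark the one match to a set of 6 motifs that was picked after the values were seen: the ETS core AGGAAG, the motif of GATA factors AGATAA, the AP-1 site TGACTCA, the promoter box TATAAA, the core of the cyclic AMP response element TGACGT, and the CArG box, searched on both strands. A CArG box can hold TATAAA; the others do not hold one another. The window of Ednrb lies at chr14:103843702-103843951 on the minus strand, in an intron of a longer GENCODE isoform, and that of Bdkrb2 at chr12:105562922-105563171 on the plus strand (RefSeq, GRCm38.p6).
Ednrb: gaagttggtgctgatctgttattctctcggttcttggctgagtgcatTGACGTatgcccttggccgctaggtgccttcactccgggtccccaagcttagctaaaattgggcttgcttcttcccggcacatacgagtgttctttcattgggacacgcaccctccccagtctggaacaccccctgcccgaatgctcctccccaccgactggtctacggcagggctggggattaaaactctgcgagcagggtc
Bdkrb2: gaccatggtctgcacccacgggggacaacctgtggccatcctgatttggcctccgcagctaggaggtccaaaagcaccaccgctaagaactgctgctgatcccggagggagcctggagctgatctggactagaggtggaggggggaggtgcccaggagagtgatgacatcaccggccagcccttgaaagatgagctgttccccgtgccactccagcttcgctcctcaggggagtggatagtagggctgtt
Ednrb holds 1 TGACGT, which 6.469% of all promoter windows of 250 bases hold. Bdkrb2 holds none of the 6, each of which occurs in 1.467% to 29.48% of such windows. These are matches of letters only.

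At a clustering resolution of 2, chosen for this description after the values were seen, aerocyte-like cells fell into a larger cluster led by Car4 and Kdr (450 and 323 cells) and a smaller one with the interferon-induced chemokine gene Cxcl10 among its leading genes (119 and 96 cells). The 2 receptors were distributed in opposite ways between them. Ednrb was 1828 and 1341 CPM in the larger cluster and 1043 and 966 CPM in the Cxcl10 cluster. Bdkrb2 was 78.4 and 20.7 CPM in the larger cluster and 314 and 176 CPM in the Cxcl10 cluster. Both libraries showed this order. Among single cells with an Ednrb UMI, 15.7% and 6.67% had a Bdkrb2 UMI, and among those without, 22.7% and 13.5%.

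**Figure D2:**
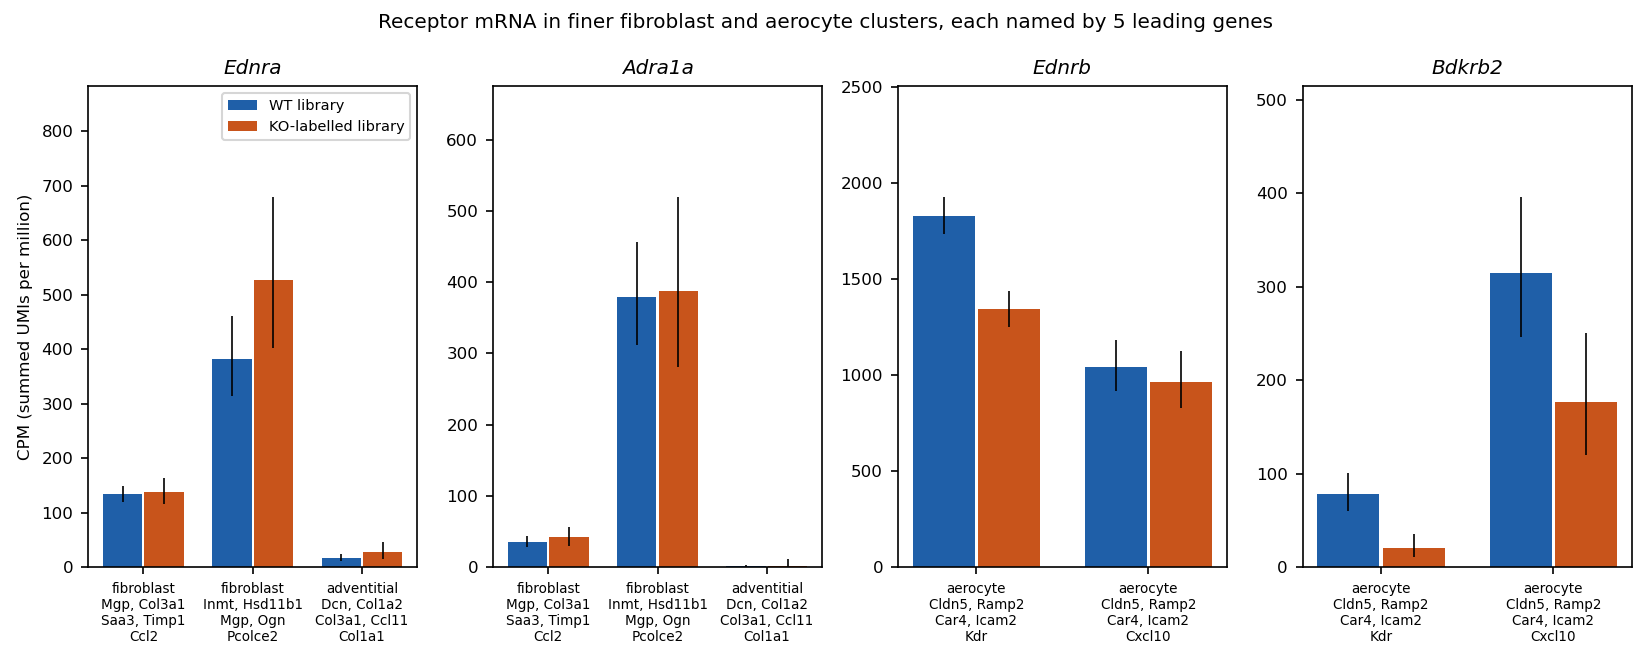
CPM of Ednra, Adra1a, Ednrb and Bdkrb2 in finer fibroblast and aerocyte clusters, each labelled with its 5 leading genes; bars are the WT (blue) and KO-labelled (orange) library, lines the exact Poisson 95% interval. Adra1a and Ednra peak in the Inmt and Hsd11b1 cluster, and Bdkrb2 in the aerocyte cluster with Cxcl10, where Ednrb is lower.

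Ednra (chromosome 8, 77663031 to 77724464, minus strand), the endothelin receptor of contractile cells, was highest in cluster 6 and in smooth muscle-like cells. Cluster 6 had 161 CPM (146 to 177) in the WT library and 179 CPM (155 to 206) in the KO-labelled library, with an Ednra UMI in 35.5% and 35.1% of 771 and 339 cells. Smooth muscle-like cells had 101 CPM (67.1 to 146; 28 UMIs in 83 cells) and 179 CPM (111 to 274; 21 UMIs in 34 cells). In the KO-labelled library these 2 classes could not be placed in order, since their intervals overlapped. In AT2-like cells 0.0782% and 0.0341% of cells had an Ednra UMI. Adventitial fibroblast-like cells had 17.3 and 28.0 CPM, well under cluster 6, and ciliated-like cells 3.75 and 1.37 CPM. An antisense gene, 4933431K23Rik, overlaps Ednra and had 34 UMIs in all cells, and the files do not state how strand was used.

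The stretch before the RefSeq start of Ednra, at chr8:77724465-77724702 on the minus strand, is shown beside those of the aerocyte pair because it belongs to the other endothelin receptor, with matches to the same motifs in capitals.
Ednra: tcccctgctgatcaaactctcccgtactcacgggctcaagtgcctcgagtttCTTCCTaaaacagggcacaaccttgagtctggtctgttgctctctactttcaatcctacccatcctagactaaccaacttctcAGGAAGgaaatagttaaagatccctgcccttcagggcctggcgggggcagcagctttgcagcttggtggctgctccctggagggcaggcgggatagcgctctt
It holds AGGAAG 2 times, once on each strand, and 28.14% of promoter windows of 238 bases hold that motif at least once. The windows of Ednra and Ednrb had no motif of the 6 in common.

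Adra1a (chromosome 14, 66635251 to 66771168, plus strand) encodes an alpha-1 receptor for noradrenaline and adrenaline. It was nearly confined to cluster 6, which held 195 of 205 UMIs in the WT library and 85 of 88 in the KO-labelled library. The level there was 71.9 CPM (62.2 to 82.8) and 77.9 CPM (62.3 to 96.4), with a UMI in 16.99% and 16.81% of cells. AT2-like cells had a UMI in 0.0522% and 0.0341% of cells. No Adra1a UMI was found in smooth muscle-like cells. At their depth this allows up to 13.3 CPM in the WT and 31.5 CPM in the KO-labelled library, both below the level of cluster 6. Adra1d, the alpha-1 gene often linked to vessels, had 1 UMI in all cells, and Adra1b 11.8 and 19.3 CPM in cluster 6.

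Cluster 6 was not uniform for these receptors. At resolution 2 it parted into a cluster led by Mgp, Col3a1 and the acute-phase gene Saa3 (618 and 279 cells) and a smaller one led by Inmt and Hsd11b1, of which Inmt was among the alveolar fibroblast markers (153 and 60 cells). Adra1a was 379 CPM in the WT and 387 CPM in the KO-labelled library in the Inmt cluster, against 35.1 and 42.0 CPM in the Saa3 cluster. Ednra was 382 and 528 CPM in the Inmt cluster, against 134 and 138 CPM in the Saa3 cluster. The order was the same in both libraries, and the step was larger for Adra1a than for Ednra. Of cells of cluster 6 with an Ednra UMI, 23.0% and 21.8% had an Adra1a UMI, against 13.7% and 14.1% of those without.

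Chrm2 (chromosome 6, 36388084 to 36528414, plus strand) is best known from the heart and from airway nerve endings and muscle. Here it was found in 3 classes. General capillary-like cells had 129 CPM (114 to 146) in the WT and 98.7 CPM (82.7 to 117) in the KO-labelled library. The pleural lining, here the mesothelial-like class, had 124 CPM (114 to 136) and 37.0 CPM (27.7 to 48.6). Venous-like cells had 60.6 CPM (26 UMIs) and 34.6 CPM (10 UMIs). The first 2 could not be told apart in the WT library, while in the KO-labelled library general capillary-like cells were 2.67-fold higher than mesothelial-like cells. The gene was rare in all other classes: smooth muscle-like cells had 3 and 2 UMIs, and 0 of 3835 (which allows up to 0.0961%) and 1 of 5860 AT2-like cells had a UMI. Aerocyte-like cells, the other capillary type, had 0 and 1 UMI, the reverse of the order of Ednrb. A Chrm2 UMI was present in 14.9% and 13.1% of general capillary-like cells. Another gene on the opposite strand, 9330158H04Rik, overlaps Chrm2 and had 47 UMIs in all cells.

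The bases before the first annotated start of Chrm2, at chr6:36387834-36387990 on the plus strand, are shown because this gene had the most UMIs among the receptors that differed by 2-fold between the libraries.
Chrm2: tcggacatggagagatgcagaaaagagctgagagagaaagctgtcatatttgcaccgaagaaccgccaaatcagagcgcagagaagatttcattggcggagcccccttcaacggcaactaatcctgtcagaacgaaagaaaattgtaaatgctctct
None of the 6 motifs was found in these 157 bases; each occurs in 0.8402% to 18.89% of promoter windows of that length.

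Chrm3 (chromosome 13, 9875486 to 10360847, minus strand), the receptor through which acetylcholine contracts airway muscle and drives gland secretion, was spread over several endothelial classes and mesothelial and ciliated cells. Aerocyte-like cells had 0 UMIs in 569 cells of the WT library and 3 UMIs in 1 of 419 cells of the KO-labelled library. Lymphatic-like cells had 192 CPM (128 to 275; 29 UMIs in 14 of 39 cells) in the WT library and 1 UMI in 12 cells of the KO-labelled library. Venous-like cells had 154 CPM (119 to 196) and 97.0 CPM (64.4 to 140), and general capillary-like cells 46.2 and 30.4 CPM. Mesothelial-like cells had 29.0 CPM (24.03 to 34.61) and 7.83 CPM (3.91 to 14.0), and ciliated-like cells 25.4 CPM (21.5 to 29.8) and 10.99 CPM (7.85 to 14.96). The 40 AT1-like cells of the KO-labelled library had 76.2 CPM, from 14 UMIs in 7 cells. The share of cells with a UMI was 20.6% and 15.04% in venous-like, 9.71% and 4.96% in ciliated-like and 0.287% and 0.102% in AT2-like cells. In the WT library lymphatic-like and venous-like cells did not differ beyond their intervals, nor did mesothelial-like and ciliated-like cells. Smooth muscle-like cells had 2 UMIs in 1 cell and none. At this depth the level of Chrm3 in muscle can only be bounded, at up to 31.5 CPM in the KO-labelled library. Other annotated genes overlap Chrm3 on both strands, the most abundant being Gm47405 with 14 UMIs in all cells.

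Chrm3 was uneven within classes too. At resolution 2, mesothelial-like cells fell into a cluster with Igfbp5 among its leading genes (547 and 125 cells) and one with C4b (338 and 133 cells). Chrm3 was 9.68 and 3.19 CPM in the Igfbp5 cluster (23 and 2 UMIs) and 54.6 and 11.6 CPM in the C4b cluster (97 and 9 UMIs). Chrm2 had the reverse order, with 152 and 54.2 CPM in the Igfbp5 cluster and 88.4 and 23.2 CPM in the C4b cluster. In general capillary-like cells Chrm3 again differed more between the finer clusters than Chrm2, with both higher in the same cluster: Chrm3 was 60.5 and 38.6 CPM in the cluster with Hpgd and Tmem100 but 13.8 and 18.0 CPM in the one with Cyyr1, while Chrm2 was 139 and 115 CPM in the first and 128 and 79.7 CPM in the second. A ciliated-like cluster of 163 and 41 cells held 71 of the 149 Chrm3 UMIs of ciliated-like cells in the WT library, at 59.5 CPM against 50.9 CPM in the KO-labelled library. The other ciliated-like cluster with enough UMIs for a ratio had 18.3 and 7.97 CPM.

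**Figure D3:**
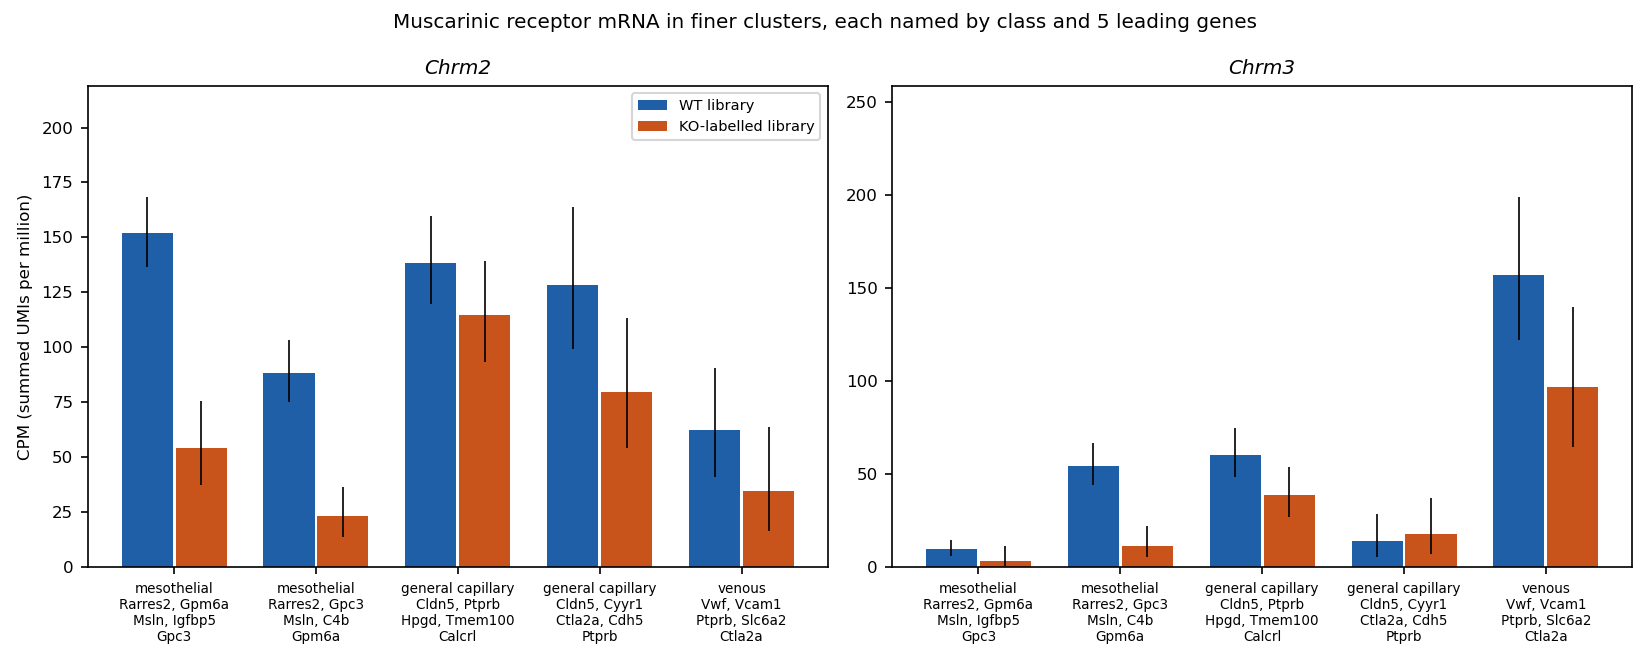
CPM of Chrm2 and Chrm3 in finer mesothelial, general capillary and venous clusters, each labelled with its 5 leading genes; bars are the WT (blue) and KO-labelled (orange) library, lines the exact Poisson 95% interval. Chrm2 is lower in the KO-labelled library in both mesothelial clusters (152 and 54.2 CPM, 88.4 and 23.2 CPM). Of the mesothelial clusters, the one with C4b has the higher Chrm3 (54.6 and 11.6 CPM). Chrm3 is highest in the venous cluster (157 and 97.0 CPM).

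Hrh1 (chromosome 6, 114397936 to 114483296, plus strand), through which histamine contracts airway muscle and opens venules, had 39 and 11 UMIs in all kept cells. Mesothelial-like cells held 29 and 7 of these, at 6.94 CPM (4.65 to 9.97) and 4.99 CPM (2.004 to 10.27). Smooth muscle-like cells had none in either library, which, as for Adra1a, allows up to 13.3 and 31.5 CPM. Agtr1a (chromosome 13, 30336441 to 30382867, plus strand), the main receptor of angiotensin II in mouse, had 51 and 15 UMIs. Mesothelial-like cells had 24 and 2, adventitial fibroblast-like cells 10 and 2, and smooth muscle-like cells 3 and 4 UMIs. The WT level was 10.8 CPM (2.23 to 31.6) in smooth muscle-like, 5.74 CPM in mesothelial-like and 4.95 CPM in adventitial fibroblast-like cells, which cannot be put in order. Its paralog Agtr1b lay in cluster 6 instead, at 18.08 and 22.01 CPM. Agtr1a had no UMI there, where 3 UMIs would be 1.11 and 2.75 CPM. How reads shared by such paralogs were assigned is not stated.

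The design also asks how the receptors differ between the libraries within a class. Ratios were taken for pairs of a receptor and a class with at least 20 UMIs over both libraries, and a pair was counted as lower or higher from a 2-fold difference. Of 21 such pairs, which cover all 8 receptors, 9 were at least 2-fold lower in the KO-labelled library and none was 2-fold higher. Over all genes in the same 9 classes, 3.86% of gene and class pairs were 2-fold lower and 1.93% 2-fold higher (4.86% and 1.91% with the airway secretory-like and neuroendocrine-like classes, in which no receptor had a ratio). By class the share of 2-fold higher genes was 5.25% in smooth muscle-like, 3.35% in venous-like, 2.79% in adventitial fibroblast-like, 2.64% in aerocyte-like, 1.94% in general capillary-like, 1.59% in cluster 6, 1.51% in mesothelial-like, 1.28% in ciliated-like and 0.689% in AT2-like cells. The log2 ratio was negative in 16 of the 21 pairs, with a median of -0.67; over all genes in the 9 classes 57.8% of ratios were negative, with a median of -0.06. The pairs are not independent, since 5 of the 9 belong to Chrm3. The shares over all genes were not matched to the receptors by UMI count, and low counts pass 2-fold more easily. The lower pairs ranged from 13 and 7 UMIs (Chrm3 in AT2-like cells) to 520 and 52 (Chrm2 in mesothelial-like cells). The receptors were chosen with earlier results of these data known.

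**Figure D4:**
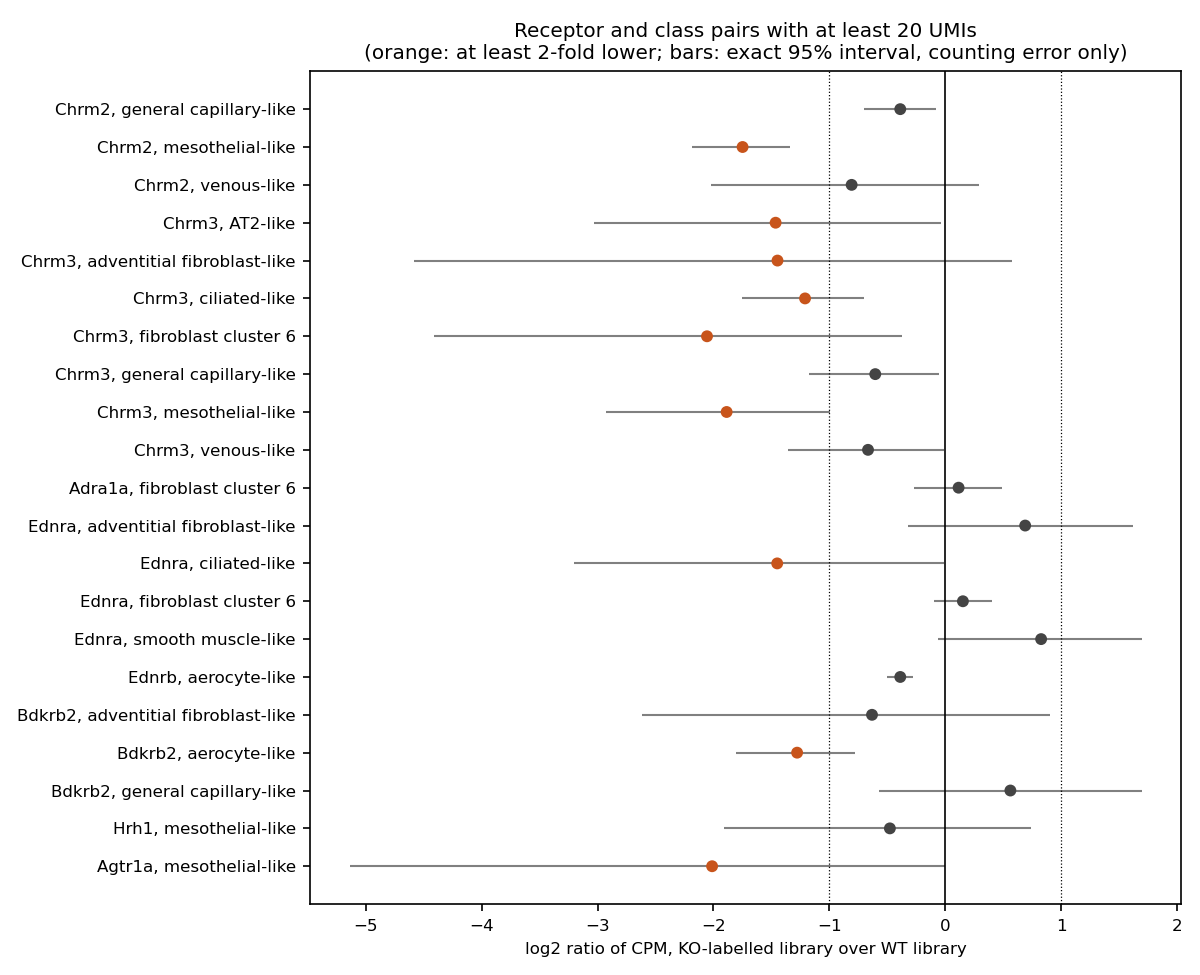
Log2 ratio of CPM, KO-labelled over WT, for the 21 pairs of receptor and class with at least 20 UMIs; lines are exact 95% intervals for counting error, dotted lines mark a 2-fold difference and orange points lie beyond it on the lower side. The 9 orange pairs range from -1.21 to -2.06, and Ednra in smooth muscle-like cells is the highest of all at 0.83.

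The mesothelial-like class held 3 of the 9 lower pairs among its 4 counted receptors, where 5.95% of all genes of the class were 2-fold lower. Chrm2 had 520 and 52 UMIs, a log2 ratio of -1.75 (-2.19 to -1.34), and a UMI in 29.1% of 890 against 13.2% of 258 cells. With each cell thinned to 1000 UMIs these shares were 11.98% and 4.72%. It was lower in both finer clusters, by -1.49 (-2.04 to -0.98) in the one with Igfbp5 and -1.93 (-2.72 to -1.22) in the one with C4b. Chrm3 had 121 and 11 UMIs (-1.89, -2.93 to -0.996) and Agtr1a 24 and 2 (-2.01, -5.14 to -0.00177). The ratio of Agtr1a became -0.86 at resolution 0.5 and -0.98 with the libraries clustered apart, which ends its 2-fold difference. Hrh1 was at -0.48 with an interval that held 0. The receptors Ptger3 and Npy1r, from the list of other constrictor receptors, were not lower in these cells: Ptger3 was 46.2 and 68.4 CPM and Npy1r 42.8 and 51.3 CPM. Mesothelial markers summed to 10895 and 9341 CPM, with none of 9 at 0. General capillary markers in the same cells summed to 1827 and 1719 CPM, nearly all from Hpgd and Sema3c, with 0 of 8 at 0 in the WT and 4 of 8 at 0 in the KO-labelled library. The other 6 were low in these cells in both libraries, among them Plvap with 12 and 0, Kit with 13 and 0, Cd93 with 16 and 0 and Ptprb with 40 and 1 UMIs. Their part in the Chrm2 ratio was not tested.

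The ratio of Chrm3 was negative in 7 of 7 classes and past 2-fold in 5. In cluster 6 it had 31 and 3 UMIs (-2.06, -4.41 to -0.38; 2.7% of all genes there were 2-fold lower). In ciliated-like cells it had 149 and 40 UMIs (-1.21, -1.75 to -0.70; 2.48%), and in AT2-like cells, where its share of cells is at the background level, 13 and 7 (-1.46, -3.03 to -0.03; 3.05%). In adventitial fibroblast-like cells, with 22 and 2 UMIs, the ratio of -1.45 had an interval from -4.58 to 0.58 (5.62%). Thinning moved the ratio to -0.32 there. Venous-like cells were at -0.67 (-1.36 to -0.01; 5.66%), but at -0.02 in thinned cells. General capillary-like cells were at -0.60 (-1.17 to -0.06; 2.53%), and at -1.37 with a stricter cell filter. Of the ciliated-like clusters, the one of 163 and 41 cells was at -0.23 (-1.14 to 0.59) and the larger one at -1.20 (-1.94 to -0.50). That the 2 differ was not tested, nor was the part of their cell numbers in the class ratio. In cluster 6 the thinned cells held 11 and 0 Chrm3 UMIs, for a ratio of -0.67 or lower.

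Other measures also differed between the libraries in the classes with muscarinic values. Chrm3 spans 485362 bases and Chrm2 140331 bases of genome. Genes that span at least 100 kb had lower medians than shorter genes in all 11 compared structural classes, a check made after the values were seen: in mesothelial-like cells -0.30 against -0.04, with 9.69% and 5.26% of genes 2-fold lower. Adra1a spans 135918 bases, and Agtr1a, Bdkrb2, Ednra, Ednrb and Hrh1 span under 100 kb each. AT2 markers made up more of the class total in the KO-labelled library, 0.262% and 0.873% in mesothelial-like and 0.164% and 2.21% in venous-like cells. Airway secretory markers were 0.167% and 3.57% of the venous-like total. They were lower in the KO-labelled library in mesothelial-like (0.143% and 0.0277%), general capillary-like (0.227% and 0.0328%), adventitial fibroblast-like and ciliated-like cells and in cluster 6. Venous-like cells also had 2 and 42 UMIs of the muscle gene Acta2 and 0 and 30 of Tagln. The part of each of these in the receptor ratios was not tested.

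In the aerocyte-like class Bdkrb2 was lower, with 132 and 44 UMIs and a log2 ratio of -1.28 (-1.80 to -0.78), where 2.42% of all genes were 2-fold lower. The ratio was -1.92 (-2.91 to -1.04) in the larger finer cluster and -0.84 (-1.49 to -0.21) in the Cxcl10 cluster. In thinned cells it was -0.76, from 55 and 24 UMIs, which ends the 2-fold difference. Ednrb in the same cells was at -0.39 (-0.50 to -0.27), from 1638 and 1012 UMIs, and -0.11 (-0.40 to 0.18) in the Cxcl10 cluster. Tbxa2r, the thromboxane receptor, was 156 and 164 CPM in the same cells. AT2 markers were 0.196% and 1.46% of the class total, and aerocyte markers summed to 15604 and 14413 CPM.

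The receptors most abundant in fibroblasts, Adra1a and Ednra, were not lower there, unlike Chrm3. In cluster 6 Adra1a was at 0.12 (-0.27 to 0.49) and Ednra at 0.15 (-0.10 to 0.40), so that a 2-fold difference in either direction lay outside both counting intervals. Ednra in smooth muscle-like cells was at 0.83 (-0.06 to 1.70), where 5.25% of all genes were 2-fold higher. That ratio was 1.76 in thinned cells, from 7 and 10 UMIs. Pericyte markers in this class summed to 937 and 1501 CPM, smooth muscle markers to 28666 and 20529 CPM, and AT2 markers made up 1.38% and 4.61% of its UMIs; their part in the Ednra value was not tested. Ednra in adventitial fibroblast-like cells was at 0.69 (-0.32 to 1.62), and at 2.99 with the libraries clustered apart. In that setting the class of the KO-labelled library held 216 Ednra UMIs in place of 14. All kept cells of this library had 240, of which cluster 6 held 195 in the joint clustering. The class therefore took in cells of cluster 6, and the 2.99 does not compare like classes. In ciliated-like cells Ednra had 22 and 5 UMIs (-1.45, -3.21 to -0.01), which became -0.84 when each cell had the same weight.

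The ligand side of these pathways was read from a list of 23 genes. Edn1, the endothelin of endothelium, was highest in venous-like cells, 277 and 215 CPM, with general capillary-like cells at 227 and 258 CPM. Ece1, the enzyme that activates endothelin, was also highest in venous-like cells, 974 and 765 CPM. Edn3, an endothelin that acts on EDNRB, was 10.7 and 22.9 CPM in cluster 6 (1.10, 0.27 to 1.92), the same cells that held Ednra. Ace, which makes angiotensin II and breaks down bradykinin, was 930 and 895 CPM in general capillary-like cells. Hdc, which makes histamine, was highest in neutrophil-like cells, 2254 and 1259 CPM. Chat and Slc18a3, which make and load acetylcholine, had no UMI in any class, and Agt had 15 UMIs in all cells.

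In smooth muscle-like cells the lists around the receptors were counted beside all genes of the class, of which 8.39% were 2-fold lower and 5.25% higher (median log2 ratio -0.08). Of 32 other constrictor receptors 4 had enough UMIs and none differed by 2-fold: F2r, a thrombin receptor, was 68.5 and 93.8 CPM, S1pr3 82.9 and 68.2 CPM, the ATP-gated channel P2rx1 57.7 and 42.6 CPM, and Lpar1 101 and 59.7 CPM. Of 21 relaxing receptors 2 were counted, the receptor partners Ramp1 (205 and 247 CPM) and Calcrl (64.9 and 85.3 CPM). From the list of ligands and their enzymes, Ace was 46.9 and 76.8 CPM and Ece1 79.3 and 128 CPM, and neither differed by 2-fold. Of 42 genes that signal downstream of the receptors 23 were counted and 1 was 2-fold higher, the calcium channel Trpc6 (61.3 and 136 CPM; 1.16, 0.07 to 2.23), which was also among the pericyte markers. Gna13 and Plcb1 were lowest in that list (-0.95 and -0.86) and Grk5 next after Trpc6 (0.66). Of 16 contractile genes 15 were counted and none passed 2-fold, with a median of -0.42; the lowest was Myocd, the coactivator that drives the contractile program, at 573 and 290 CPM (-0.98, -1.56 to -0.44), then Tpm1 (-0.74), and the highest Mylk (0.06) and Tpm2 (-0.17).

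In the other classes few list genes differed by 2-fold, and those named here were chosen after their values were seen. Of all genes, 5.95% were 2-fold lower in mesothelial-like, 2.42% in aerocyte-like and 2.7% in cluster 6 cells. The share was 2.53% in general capillary-like and 5.66% in venous-like cells. Shares of 2-fold higher genes were 1.51%, 2.64%, 1.59%, 1.94% and 3.35% in the same order. The counts of lower signalling genes, 1 of 27 in aerocyte-like and 2 of 28 in venous-like cells, were near these shares. In mesothelial-like cells 2 of 8 relaxing receptors were lower, both parts of calcitonin-family receptors: Calcrl had 73 and 0 UMIs (a log2 ratio of -3.03 or lower, set against 3 UMIs) and Ramp2 36 and 4, while Ramp1 was higher (9.10 and 19.9 CPM). Calcrl and Ramp2 are also abundant in capillaries, at 4365 CPM in general capillary-like and 6062 CPM in aerocyte-like cells of the WT library, and the capillary markers Plvap, Kit, Cd93 and Ptprb were lower in mesothelial-like cells too; their part in these values was not tested. The 10 contractile genes counted there had a median of -0.30, with Mylk (126 and 11 UMIs) and Myocd (53 and 5 UMIs) lower. None of 32 signalling genes counted in these cells passed 2-fold, and their median of -0.08 equalled that of all genes. In aerocyte-like cells 1 of 27 signalling genes was lower, Plcb1 (25 and 8 UMIs), none of 3 other constrictor receptors differed by 2-fold, and Ramp3, of 6 relaxing receptors, and Mme, of 5 ligand and enzyme genes, were higher (9 and 16, 9 and 18 UMIs). In cluster 6 the 13 other constrictor receptors had a median of -0.09 with 1 lower, Ptger1, and the bradykinin receptor Bdkrb1 was 38.7 and 40.4 CPM. In general capillary-like cells none of 32 signalling genes passed 2-fold, and in venous-like cells 2 of 28 were lower, Gna14 and Stim1. Of 6 contractile genes counted in venous-like cells Acta2 and Tagln were higher.

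The genes whose pattern over 13 classes and 2 libraries (26 points, log2 of CPM plus 10) was most like each receptor are given as a description; the points share libraries and depths. For Ednrb they were Tbxa2r (Pearson r 0.943), Ccdc184 and Rprml, and for Bdkrb2 Meox1 (0.929), Tbx3os1 and Tbxa2r. For Adra1a they were Fgfr4 (0.987), Col13a1 and Cpa3, of which Fgfr4 was among the alveolar fibroblast markers. For Ednra they were Gpr176 (0.963), Igfbp3 and Vstm4. Chrm2 had lower values, with Apol10b (0.86), Prss12 and Abcb1a, and Chrm3 the lowest, with Lama1 (0.792), Tmem252 and Rhebl1. Hrh1 and Agtr1a had under 100 UMIs and were not matched.

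The 9 lower pairs kept their negative sign in every alternative that gave a value, 11 or 12 for each pair. Past 2-fold throughout were 4: Chrm2 and Chrm3 in mesothelial-like cells and Chrm3 in ciliated-like and AT2-like cells. The last rests on 13 and 7 UMIs, and on 4 and 1 in thinned cells, at the background level. The plot of these pairs under each setting gives the values.

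**Figure D5:**
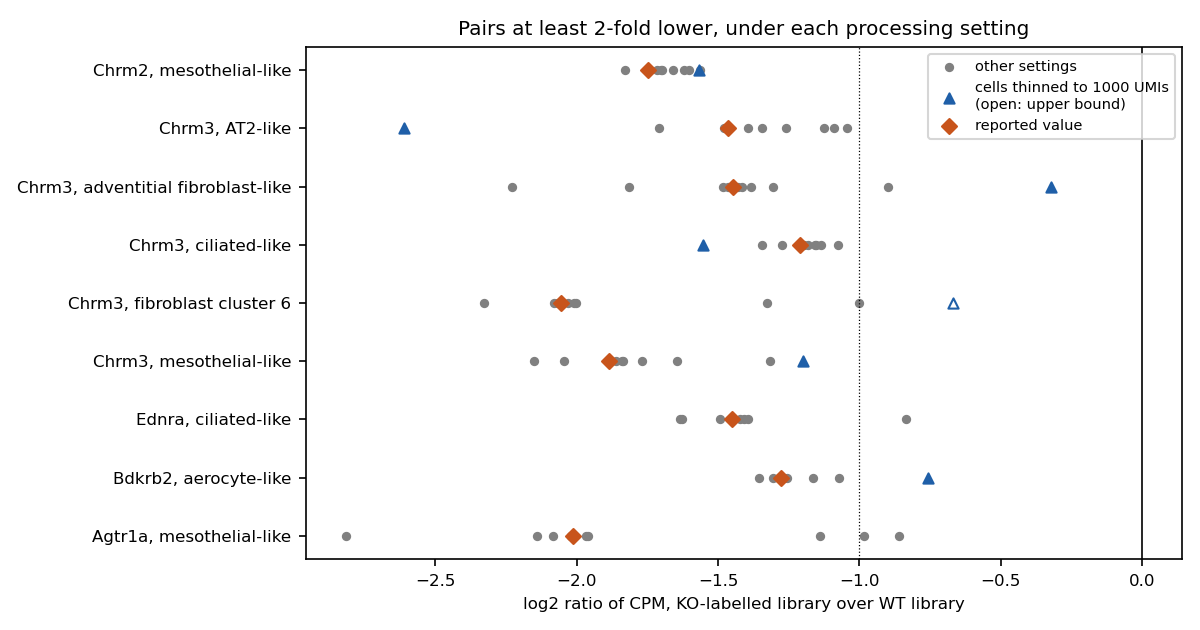
Log2 ratio of CPM, KO-labelled over WT, of the 9 pairs at least 2-fold lower, as reported (orange) and under each other setting (grey; blue triangles for cells thinned to 1000 UMIs, open where the value is an upper bound). Chrm2 in mesothelial-like cells stays between -1.83 and -1.56, and Bdkrb2 in aerocyte-like cells reaches -0.76 in thinned cells.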

How the data were processed

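Per the file headers and the submitters' processing notes, the authors ran Cell Ranger (the notes name 7.0.0 and 7.1.0) on mm10 and deposited filtered UMI counts per gene and cell, 1 library per genotype; whether intronic reads were counted is not given in the sources used here. Barcodes under 500 genes or over 15% mitochondrial UMIs were dropped, as were doublets marked by Scrublet (617 in the WT and 204 in the KO-labelled library). The remaining cells were clustered jointly in scanpy 1.11.5 (2000 variable genes without the receptors, 30 components, 15 neighbours, Leiden resolution 1, leidenalg 0.10.2). A cluster was named from at least 3 preset markers among its 50 leading genes, and 22 of 27 were. These names are rebuilt and may differ from the study's.

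UMI counts were summed per class and library and given as CPM with exact Poisson intervals, ratios with exact conditional binomial intervals and shares of cells with Clopper-Pearson intervals (scipy 1.17.1, 95%), which cover counting error only. The interval code was tested on simulated data. In ratios a zero is set to 3 UMIs. Ratios need 20 cells in each library and 20 UMIs over both, and none is given where both libraries have 3 UMIs or fewer. Alternatives were other cell filters, doublets kept, other clusterings, scalings (edgeR 4.0.16 for TMM), UMI minimums, thinning to 1000 UMIs and weighting by cell.

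Named beside the receptors are, of each other list, the 2 highest and 2 lowest ratios in smooth muscle-like cells and the 3 genes nearest in pattern; 1 gene this rule names is not reported here. The receptors and lists were chosen with earlier results of these data known. Finer clusters, co-detection pairs, gene span, motifs, the shown promoters and the zero rules were chosen with the values in view. GENCODE M21 gave the gene positions (32158 of 32285 identifiers matched) and RefSeq, GRCm38.p6, the promoters of 6 of the 8 receptors.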

Additional observations from a re-analysis of the deposited data

How the results depend on the processing

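The count of 9 lower pairs among 21 was 8 to 10 under the other cell filters, clusterings, scalings and weightings, 3 of 10 pairs in cells thinned to 1000 UMIs and 4 of 10 with a minimum of 50 UMIs; fewer pairs have a ratio in the last 2. The count of higher pairs, 0 as reported, was 1 with the looser and 1 with the stricter cell filter. It was 2 with the libraries clustered apart, among them Ednra in adventitial fibroblast-like cells. With no UMI minimum it was 4, where 39 pairs had a ratio and 13 were lower. Shares over all genes were taken at the reported setting only, so the counts under other settings cannot be set against 3.86% and 1.93%. Of 245 ratios recomputed, 239 stayed within the reported counting interval and none that was past 2-fold changed sign. Among the 6 others was Ednra in adventitial fibroblast-like cells (2.99, libraries apart), where the class took in cells of cluster 6. Thinned cells gave Ednra in smooth muscle-like (1.76) and Bdkrb2 in aerocyte-like cells (-0.76). The stricter filter gave Ednrb in aerocyte-like cells (-0.53) and Chrm2 and Chrm3 in general capillary-like cells (-0.99 and -1.37). What moved the values in thinned cells and with the stricter filter was not tested. In the stricter filter Scrublet marked 7 cells of the KO-labelled library (0.0891%) and so did not work there. Adra1a in cluster 6 and Bdkrb2 in general capillary-like cells changed sign in 1 alternative each, both to near 0. Of 448 recomputed levels 391 stayed within their interval. Leaving out the cell with the most UMIs of a receptor in each library, chosen after seeing the data, gave 10 lower pairs of 20. TMM moved class ratios by -0.10 to 0.26. No paired analysis was possible because each genotype has 1 library. Depth limits Hrh1, Agtr1a and every receptor in smooth muscle-like cells (83 and 34 cells).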
